A study of Mus musculus with 43 samples.

Results

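Activity-regulated immediate early genes were examined in single NAcLat→VTA cells, the neurons of the lateral nucleus accumbens that project to the ventral tegmental area. The set holds 10 named genes of the 35825 genes in the tables, chosen by name for their known response to neuronal activity: *Fos*, *Fosb*, *Fosl2*, *Jun*, *Junb*, *Egr1*, *Egr3*, *Arc*, *Nr4a1* and *Npas4*. All 10 were followed across 43 cells, 23 from REG mice on regular chow (labelled NORM) and 20 from HFD mice offered high-fat chow beside regular chow. The animals were C57BL/6J mice of both sexes, and every cell carried retrograde beads injected into the ventral tegmental area. Each cell was recorded in an acute brain slice with injected currents before its cytosol was drawn into the pipette and sequenced as 1 library. The labels place 13 REG cells and 5 HFD cells in batch 1, and 10 REG cells and 15 HFD cells in batch 2. The labels do not name the mouse of a cell, so each diet counts as 1 sample and no test, standard error or p-value was taken from cells. The slicing and the recording came before collection in both diets, and their part in the levels was not tested.

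Immediate early genes are switched on within minutes of a calcium or growth factor signal, without a need for new protein. In neurons, calcium entering through synaptic receptors and voltage-gated channels activates kinases that phosphorylate factors already sitting at these promoters, such as CREB and SRF. The products fall into groups. *Fos*, *Fosb*, *Fosl2*, *Jun* and *Junb* encode subunits of AP-1, a dimeric transcription factor. *Egr1* and *Egr3* encode zinc finger transcription factors, *Nr4a1* an orphan nuclear receptor, and *Npas4* a neuronal transcription factor that responds with some selectivity to calcium. *Arc* encodes a synaptic protein that acts in the removal of AMPA receptors. In medium spiny neurons of the striatum these genes are widely used as marks of recent activity.

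Promoter sequence was available for 7 of the 10 genes in a RefSeq table of build GRCm38.p6, covering 250 bases before to 50 bases after each start. It was searched on both strands for the cAMP response element TGACGTCA, the AP-1 site TGAGTCA and the CArG box of SRF. None of the 7 windows held any of these letters in full, which 1.79%, 5.20% and 1.63% of the 32851 windows in the table did. Sites further upstream, and the promoters of *Egr1*, *Egr3* and *Arc*, were not searched. The shorter core of the cAMP response element, TGACG, lies within the full element and was searched after the sequences had been seen. It occurred in 5 of the 7 windows, those of *Fos*, *Fosb*, *Junb*, *Nr4a1* and *Npas4*, and in 20.8% of all windows. *Nr4a1* held 4 copies, a number reached by 0.231% of all windows, and *Fos* and *Npas4* held 2 copies each. *Jun* and *Fosl2* held none in this window. Each core is printed in capitals below (read as CGTCA where it lies on the other strand). Stretches upstream of the start are shown for the 5 genes that hold the core. They let its number be compared, and its place except for *Npas4*. They come from chr12:85473640-85473889 (plus strand), chr7:19310052-19310295 (minus strand), chr8:84978749-84978998 (minus strand), chr15:101266596-101266845 (plus strand) and chr19:4990129-4990158 (minus strand). They lie upstream of the RefSeq starts and, except for *Npas4*, outside annotated exons, in an intron of a longer transcript for *Nr4a1*. The *Npas4* stretch lies in an exon of a longer annotated transcript and is cut to 30 bases. It ends further from the start than the other stretches, so the place of its cores cannot be read from these letters.
Fos: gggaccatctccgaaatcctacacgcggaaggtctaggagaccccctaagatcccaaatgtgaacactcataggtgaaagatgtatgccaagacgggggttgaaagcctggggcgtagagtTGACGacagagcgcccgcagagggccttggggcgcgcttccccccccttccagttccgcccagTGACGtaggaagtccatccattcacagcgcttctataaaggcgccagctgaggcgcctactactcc
Fosb: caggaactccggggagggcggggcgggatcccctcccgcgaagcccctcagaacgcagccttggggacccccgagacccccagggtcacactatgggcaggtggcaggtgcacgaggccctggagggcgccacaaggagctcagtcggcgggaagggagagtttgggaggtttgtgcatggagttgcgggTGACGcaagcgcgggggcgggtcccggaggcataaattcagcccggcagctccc
Junb: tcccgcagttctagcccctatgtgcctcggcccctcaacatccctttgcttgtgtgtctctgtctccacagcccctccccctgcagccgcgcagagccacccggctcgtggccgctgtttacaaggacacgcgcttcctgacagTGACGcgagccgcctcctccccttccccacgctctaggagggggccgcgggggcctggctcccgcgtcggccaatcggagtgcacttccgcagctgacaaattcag
Nr4a1: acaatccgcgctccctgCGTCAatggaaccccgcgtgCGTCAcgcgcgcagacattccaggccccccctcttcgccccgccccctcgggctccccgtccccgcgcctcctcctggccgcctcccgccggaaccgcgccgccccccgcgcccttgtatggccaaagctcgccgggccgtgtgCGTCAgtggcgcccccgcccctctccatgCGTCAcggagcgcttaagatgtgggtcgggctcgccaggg
Npas4: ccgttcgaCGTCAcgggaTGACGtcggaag
A match is a description of the letters, and binding was not measured.

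At full depth, most cells had a count for most of the genes. Of the 430 pairs of a gene and a cell, 395 had an estimated count above 0 (91.9%, exact binomial 95% interval 88.9% to 94.3%). This interval takes the pairs as independent, although the 10 genes share each cell, so it does not cover the spread between cells or mice. Each cell counted between 6 and 10 of the genes, and 21 of the 43 cells counted all 10. *Egr1* and *Arc* were counted in all 43 cells, *Fos* and *Junb* in 42, *Npas4* in 40, *Fosb* and *Jun* in 39, *Nr4a1* in 37, and *Fosl2* and *Egr3* in 35. Total counts ran from 176961 to 16919555 per cell with a median of 1426795, so detection was repeated after drawing 150000 counts from each cell. It then fell to 77.4% of the pairs, with *Egr1* still counted in 43 cells and *Fosl2* in 24. A stricter limit of 15 counts per 1000000 counts (CPM) was passed by 66.0% of the pairs, and the number of genes above it ran from 1 to 10 per cell, with a median of 6. A count above 0 was therefore near universal at full depth, but not at equal depth, and levels above 15 CPM were not. Cells counted a median of 10065 genes in all (6143 to 14279), and the matching share over the filtered genes is not given.

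**Figure D1:**
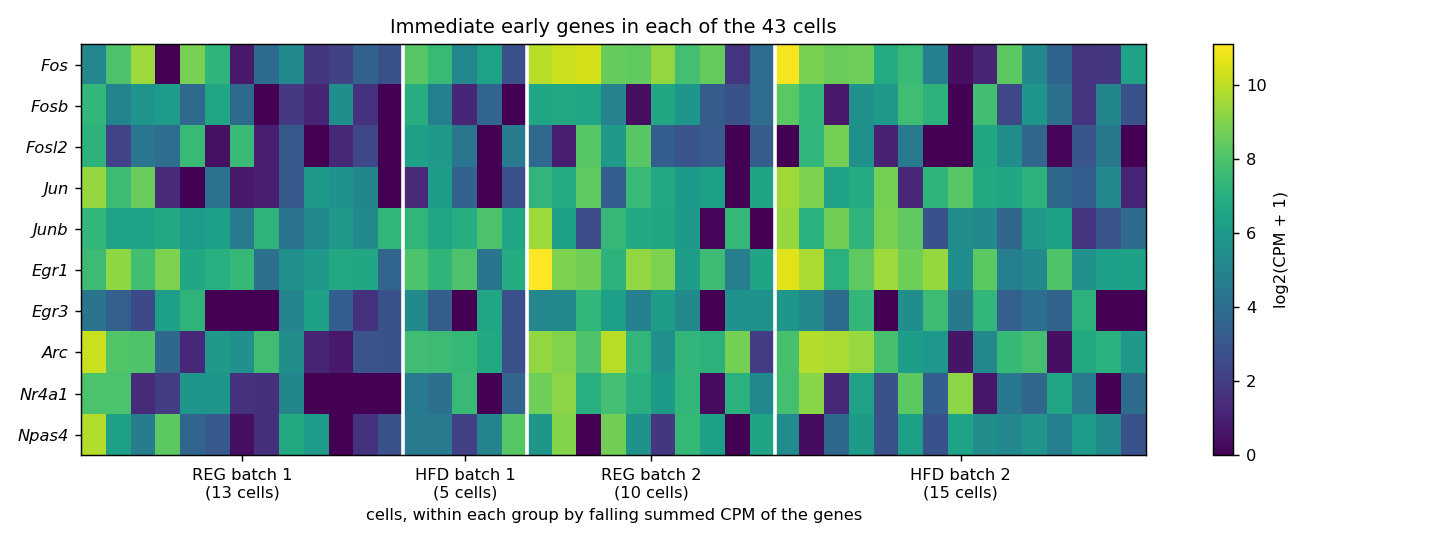
The heat map shows log2(CPM + 1) of the 10 genes (rows) in each of the 43 cells (columns), with white lines between the 4 groups of diet and batch. *Egr1* is above 0 in every column, while dark entries at or near 0 are scattered over the rows of *Fosl2*, *Egr3*, *Nr4a1*, *Jun* and *Fosb*.

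Levels can be compared between genes only per transcript length, so their order was taken from transcripts per 1000000 (TPM). Median TPM over the 43 cells was 104 for *Fos*, 85.8 for *Junb*, 79.5 for *Arc* and 73.5 for *Egr1*. These 4 form the upper part of the order. *Jun* followed at 30.1, *Npas4* at 16.3, *Nr4a1* at 14.7, *Fosb* at 13.1, *Egr3* at 12.9 and *Fosl2* at 3.58. The quartile ranges over cells of all 9 neighbouring pairs overlapped, so no step in the order exceeded the spread between cells. Within single cells, *Egr1* exceeded *Jun* in TPM in 37 of 43 cells, whereas *Fos* exceeded *Junb* in 22. *Arc* exceeded *Egr1* in 16 cells and *Npas4* exceeded *Nr4a1* in 18, so neither of these steps held in most cells. *Fos* was the leading gene in 13 cells, *Egr1* in 11, *Junb* in 8, *Arc* in 7, *Npas4* in 2, and *Egr3* and *Nr4a1* in 1 each. *Fosb*, *Fosl2* and *Jun* led in no cell. Among the 10802 genes that passed the expression filter (CPM above 15 in at least 5 cells and mean CPM above 4), which all 10 genes pass, median TPM of *Fos* stood at percentile 92.2 and that of *Fosl2* at percentile 42.9.

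Among the AP-1 subunits, *Fos* had the widest spread, from 0 to 2000.2 CPM with a median of 83.7. In REG cells it had a lowest value of 0, a median of 151 and a highest of 1316 CPM, and in HFD cells 0.366, 83.2 and 2000.2 CPM. The diets overlapped over almost their whole range. By batch the medians stood further apart within REG cells, at 14.3 CPM in batch 1 and 359 CPM in batch 2, than within HFD cells, at 83.7 and 82.6 CPM. *Fosb*, whose splice form ΔFosB accumulates in striatum under chronic stimulation, ran from 0 through a median of 29.2 to 164 CPM in REG cells. In HFD cells it ran from 0 through 29.5 to 304 CPM, so the medians of the diets lay within 1 CPM of each other. The tables sum transcripts per gene and do not separate ΔFosB from full-length *Fosb*. *Fosl2*, a later-acting Fos family member, had a median of 8.16 CPM (0 to 299) among REG and 20.6 CPM (0 to 445) among HFD cells.

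*Jun*, the partner of the Fos proteins in AP-1, had medians of 61.8 CPM (0 to 655) among REG and 78.9 CPM (0 to 736) among HFD cells. Within HFD cells the batches stood apart. The 5 HFD cells of batch 1 held 0, 1.53, 5.61, 10.3 and 74.6 CPM, whereas the 15 HFD cells of batch 2 ran from 1.20 through a median of 110 to 736 CPM. *Junb*, a Jun family subunit, was even in batch 1, where all 18 cells lay between 17.95 and 255 CPM, and in batch 2 the 25 cells ran from 0 through a median of 80.0 to 716 CPM. Median *Junb* was 80.0 CPM over REG and 94.5 CPM over HFD cells. The annotation places exons of *Prdx2* on the opposite strand over part of *Junb*, and of *Junos* over part of *Jun*. Whether the libraries kept strand is not given in the sources used here, so reads in the shared stretches may come from either gene.

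The zinc finger factor *Egr1* passed 15 CPM in 42 of 43 cells, the most of any gene in the set. It ran from 11.3 through a median of 144 to 2192 CPM in REG cells and from 19.03 through 201 to 1532 CPM in HFD cells. *Egr3*, a related factor, was lower, with a median of 30.8 CPM among REG cells (0 to 162) and of 18.4 CPM among HFD cells (0 to 197). The diets overlapped for both genes. *Arc* ran from 0.700 through 141 to 1189.8 CPM in REG cells and from 0.364 through 153 to 910 CPM in HFD cells. *Arc* lay above 15 CPM in 16 of 23 REG cells and in 17 of 20 HFD cells, with exact binomial 95% intervals of 47.1% to 86.8% and 62.1% to 96.8%, which cover counting error only and say nothing of the spread between mice.

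*Nr4a1* was spread from 0 to high levels within both diets. Its REG cells ran from 0 through a median of 56.5 to 566 CPM, and its HFD cells from 0 through 18.4 to 582 CPM. REG cells of batch 1 had a median of 2.04 CPM, with 4 of 13 cells at 0, and REG cells of batch 2 a median of 133 CPM, with none of 10 at 0. *Npas4* ran from 0 through a median of 49.1 to 905 CPM in REG cells and from 0.289 through 33.0 to 297 CPM in HFD cells. It was counted in 20 of 23 REG cells (exact binomial 95% interval 66.4% to 97.2%) and in 20 of 20 HFD cells (83.2% to 100%, again counting error only). HFD cells were thus never at 0 but also never as high as the highest REG cells. The highest 5 cells held 63.9% of the summed CPM of *Npas4*, the largest such share in the set, where the median gene of the filter had 53.2% and the median of the 10 genes was 48.4%.

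**Figure D2:**
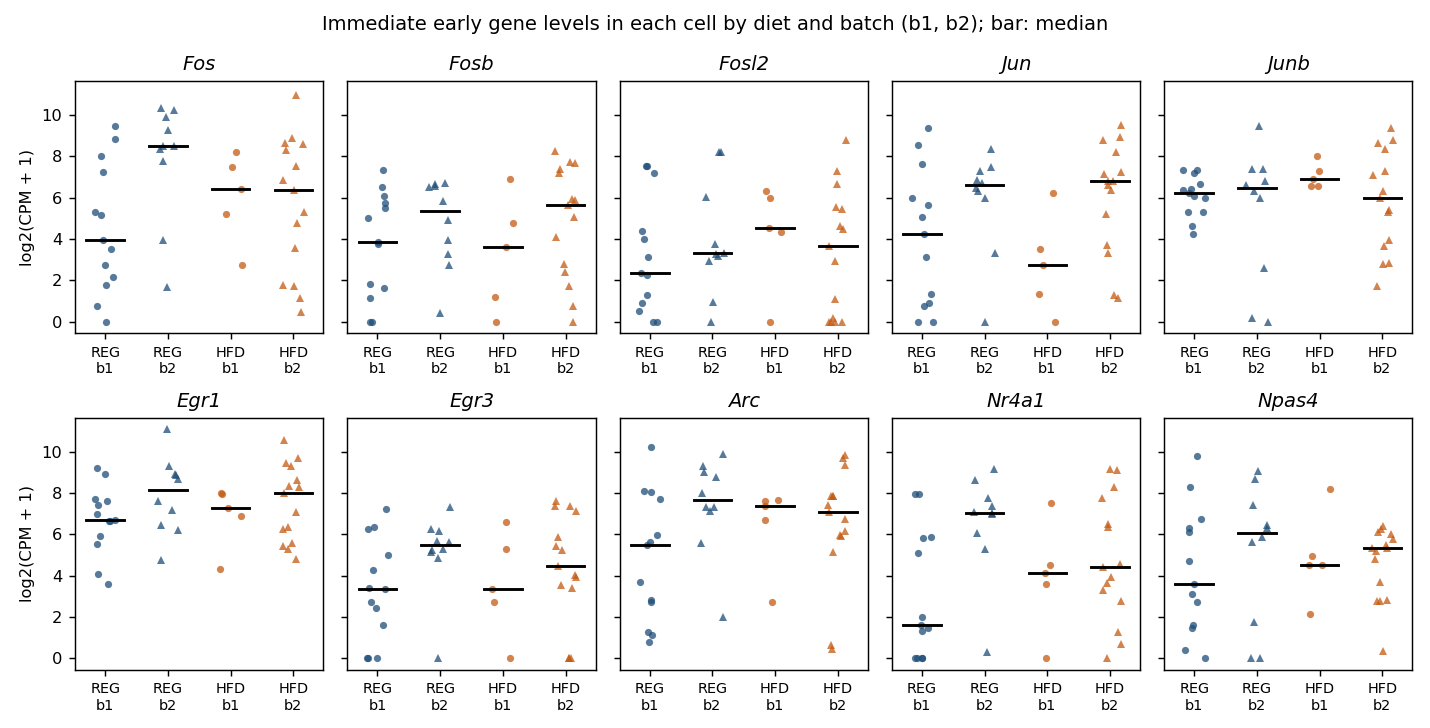
Each panel plots log2(CPM + 1) of 1 gene in every cell, split by diet and batch (b1, b2), with a black bar at the group median. The REG cells of batch 2 have the highest median of the 4 groups for *Fos*, *Arc*, *Nr4a1*, *Egr1*, *Egr3* and *Npas4*, and the ranges of REG and HFD cells overlap in every panel.

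The comparison of diets asked whether these genes differed in NAcLat→VTA cells of HFD mice. Taken as the log2 ratio of mean CPM in HFD cells to mean CPM in REG cells, the 10 genes had a median of 0.02, with 5 above 0 and 5 below, beside a median of −0.13 over the 10802 filtered genes. A log2 ratio over 1 in either direction was set as the limit for calling a gene. No gene of the set was higher by that limit, where 9.04% of the filtered genes were, and 1 gene, *Npas4*, was lower, where 14.3% were. Mean *Npas4* was 127 CPM among REG cells against 46.9 CPM among HFD cells, which gives −1.44 as log2 ratio. It was among the genes the study displayed for these cells, so its value is not independent of that choice. The other 9 genes had ratios from −0.41 for *Fos* to 0.73 for *Fosb*. Summed over cells, counts per 1000000 were 119 (exact Poisson 95% interval 116 to 122) in REG cells and 34.1 (32.3 to 35.9) in HFD cells for *Npas4*, and 348 (343 to 353) and 207 (203 to 212) for *Fos*. These intervals cover counting error only and are far narrower than the spread between cells.

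The *Npas4* ratio came from its highest cells. REG cells 5, 21, 22 and 9 held 905, 529, 417 and 314 CPM, and no HFD cell passed 300 CPM (0 of 20 cells). That limit was chosen after the values were seen, with the highest HFD cell at 297 CPM, so the choice fixed the count of 0. The 4 named REG cells held 74.2% of the summed CPM of the REG cells. Without them the log2 ratio was 0.24, but taking high cells from REG alone could only raise it. Without the 3 highest cells of either diet the ratio was −0.19. On the mean of log2(CPM + 1), which weighs low cells more, HFD cells exceeded REG cells by 0.060. Leaving out REG cell 5 by itself moved the ratio from −1.44 to −0.97, inside the limit. Leaving out HFD cell 1, which held 297 CPM, moved the ratio the other way, to −1.91. In batch 1 the ratio was −0.64 and in batch 2 −1.90, and with DESeq2 size factors in place of total counts it was −0.79 over all cells.

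The remaining genes shifted with the cells and batches taken. *Fos* had −0.12 in batch 1 and −0.998 in batch 2, just inside the limit, and −1.15 over both batches without HFD cell 10. *Jun* had −2.55 in batch 1, where it was the 1 gene past the limit (23.9% of filtered genes were lower and 18.3% higher), and 0.70 in batch 2. Its direction therefore differed between the batches, with 5 HFD cells behind the batch 1 value. In batch 2, *Npas4* was again the 1 gene past the limit on the lower side, where 21.1% of filtered genes were, and none was past it on the higher side, where 13.5% were. *Fosb* had −0.21 and 0.74 in the batches, and −0.06 over both without its 3 highest cells. Those were HFD cells 10, 11 and 12, so leaving them out could only lower the ratio. *Junb* was above 0 in both batches, at 0.81 and 0.19, as was *Egr3*, at 0.01 and 0.09. *Egr1* had −0.11 and −0.38, *Arc* −0.26 and −0.41, and *Nr4a1* −0.09 and −0.52, all below 0 within each batch. Within batch 1 the median of the set was −0.17, and within batch 2 −0.35, beside −0.09 and −0.16 over all filtered genes.

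**Figure D3:**
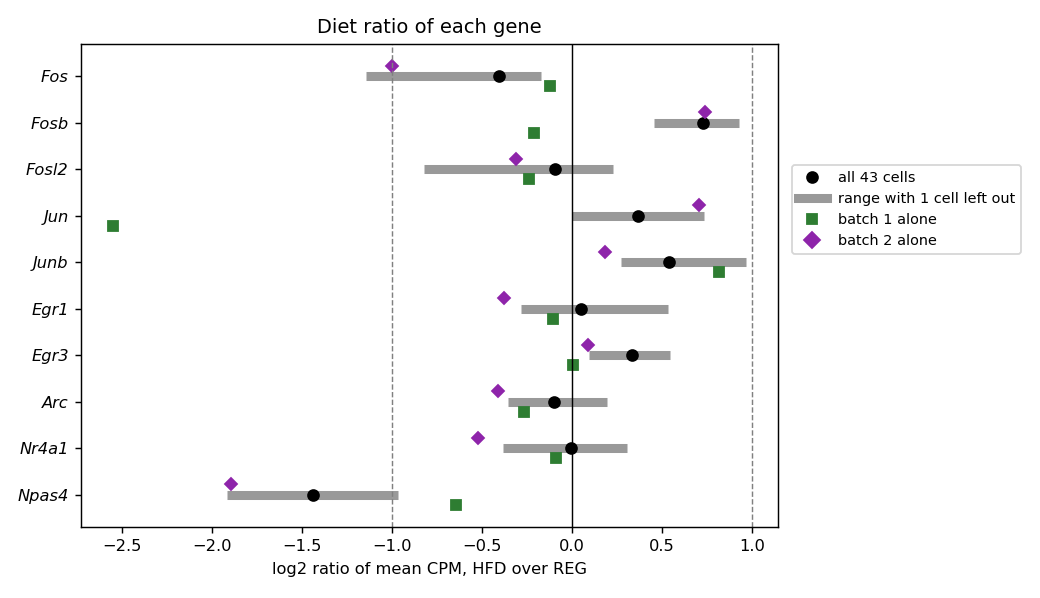
The plot gives for each gene the log2 ratio of mean CPM, HFD over REG, in all 43 cells (black), its range when any 1 cell is left out (grey bar), and the ratio in batch 1 (green squares) and batch 2 (purple diamonds), with dashed lines at the limit of 1. *Npas4* is the 1 gene whose value over all cells lies beyond a dashed line, and *Jun* in batch 1 lies at −2.55.

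*Fosl2* depended on the unit and on 1 cell. Its log2 ratio was −0.09 in CPM and 0.90 in TPM. HFD cell 13, the highest for this gene, had 445 CPM and 331 TPM, a quotient of 0.743 TPM per CPM. Among the 34 other cells with a count the median quotient was 0.246 (quartiles 0.211 and 0.298, highest 1.14). Without HFD cell 13 the TPM ratio was −0.77 and the CPM ratio −0.82. The annotation lists 3 *Fosl2* transcripts of 1707 to 6537 bases, and TPM divides by the length of the transcripts to which reads were assigned.

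A difference between batches ran through the set in REG cells. Comparing batch 2 with batch 1 within the REG cells, the log2 ratio of mean CPM was above 0 for all 10 genes, from 0.05 for *Jun* to 2.06 for *Fos*, with a median of 0.83 beside 0.01 over the filtered genes. *Fos*, *Nr4a1* (1.89), *Egr1* (1.47) and *Arc* (1.03) passed the limit, 4 of 10 genes where 18.8% of filtered genes were higher and 18.5% lower. Without REG cell 18, which had the highest *Egr1* (2192 CPM) and *Junb* (716 CPM) of all cells, 2 genes passed. Within the HFD cells the median was 1.07 beside −0.10, with 9 genes above 0 and 5 past the limit (*Jun* 3.30, *Nr4a1* 1.45, *Fosb* 1.39, *Egr1* 1.20 and *Fos* 1.18), where 23.4% of filtered genes were higher. This count was 3 without HFD cell 10 and 8 without HFD cell 3. *Npas4* went the other way in HFD cells, at −1.001, where 24.8% of filtered genes were past the limit on the lower side. On the mean of log2(CPM + 1) the median was 1.52 in REG cells, beside 0.05 over the filtered genes, and 0.39 in HFD cells, beside −0.41. On that scale 9 genes were above 0 in REG cells and 6 in HFD cells, and on the ratio of means with any 1 cell left out at least 8 and 7 were.

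After thinning to equal depth, 65.4% of the pairs of gene and cell were detected in REG cells of batch 1 and 86% in REG cells of batch 2. In HFD cells these shares were 82% and 80.7%, so detection of the set was lowest in the REG cells of batch 1. Over all genes, the median number detected per thinned cell was 7372 and 8222.5 in REG cells of batch 1 and batch 2. In HFD cells it was 7893 and 6573, so detection over all genes also differed between the groups. How far this accounts for the shares of the set was not tested. The labels give no further account of the batches, and batch 2 held 15 of the 20 HFD cells but 10 of the 23 REG cells. Ratios between diets over all cells therefore mix diet with batch for this set, and the values within batches are the ones that do not.

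Co-variation between the genes was described by Spearman's rho of CPM over the 43 cells. Over the 45 pairs of genes the median rho was 0.28, from −0.04 to 0.64, where the median over all 58336201 pairs of filtered genes was 0.081, with 5% of pairs below −0.205 and 5% above 0.351. Of the 45 pairs, 18 had a rho above 0.3, and of all pairs 9.3% did. The points share libraries, depth, batch and the mice behind them, and the 10 genes are counted in more cells than many filtered genes, so the values are given as a description. The median was 0.23 within batch 1, 0.22 within batch 2, and 0.24 for ranks adjusted for total count and number of detected genes. It was 0.30 among REG cells and 0.17 among HFD cells.

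The strongest pair was *Fosb* and *Egr1* at 0.64, with 0.64 in batch 1 and 0.65 in batch 2. *Fos* and *Arc* followed at 0.59, with 0.53 and 0.61 in the batches. Both passed 15 CPM in 27 cells, neither in 9, *Arc* without *Fos* in 6 and *Fos* without *Arc* in 1. *Jun* and *Egr1* had 0.56, *Fos* and *Egr1* 0.48 and *Junb* and *Arc* 0.47. The AP-1 subunits did not vary as a block: *Fosb* with *Jun* had 0.44 and *Fos* with *Jun* 0.43, whereas *Jun* with *Junb* had −0.00 and *Fosl2* with *Junb* 0.06.

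*Npas4* had the lowest median rho with the other 9 genes, 0.04, and none of its pairs passed 0.3. Its rho with *Fos* was 0.00, with *Egr1* 0.02 and with *Arc* 0.04, and its closest partners were *Nr4a1* at 0.28 and *Egr3* at 0.24. Both *Fos* and *Npas4* passed 15 CPM in 18 cells, *Fos* without *Npas4* in 10, *Npas4* without *Fos* in 9 and neither in 6. Of the 15 cells with *Fos* at or below 15 CPM, *Npas4* was above it in 3 of the 9 REG cells and in all 6 HFD cells. By batch these counts were 3 of 8 cells in batch 1 and 6 of 7 in batch 2, and since 7 of the 9 REG cells were of batch 1 and 5 of the 6 HFD cells of batch 2, diet and batch cannot be told apart here. The rank correlation of *Npas4* with *Fos* was 0.19 among the 23 REG cells and −0.33 among the 20 HFD cells, and with *Arc* 0.29 and −0.38. The difference between the diets was not tested.

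**Figure D4:**
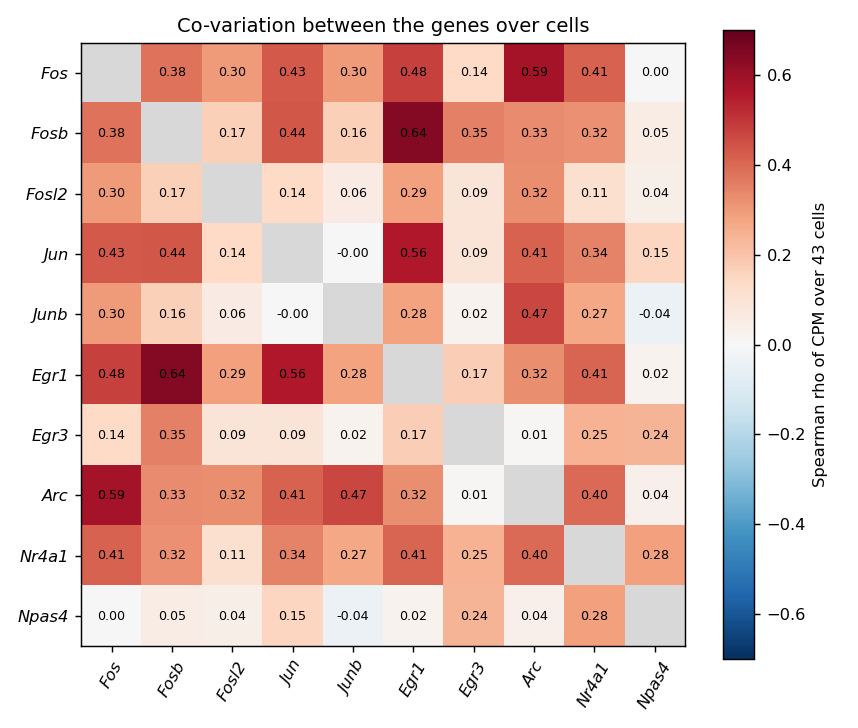
Each square gives Spearman's rho of CPM for a pair of genes over the 43 cells, on a scale from blue (negative) to red (positive). The row of *Npas4* is near white, with 0.28 at *Nr4a1* as its highest value, and the darkest squares are *Fosb* with *Egr1* (0.64), *Fos* with *Arc* (0.59) and *Jun* with *Egr1* (0.56).

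Single cells show these combinations. HFD cell 10 had the highest *Fos* (2000.2 CPM), *Jun* (736 CPM) and *Fosb* (304 CPM) of all cells and the highest *Egr1* among HFD cells (1532 CPM), with *Fosl2* at 0 and *Npas4* at 40.0 CPM. REG cell 5 had the highest *Npas4* (905 CPM) and *Arc* (1189.8 CPM), with *Jun* at 655 CPM but *Fos* at 34.5 CPM. These cells were high in different members of the set. HFD cell 19 had the highest *Nr4a1* (582 CPM) with *Fos* at 0.366 CPM and *Arc* at 0.549 CPM. HFD cell 9 and REG cell 5 were the 2 cells with all 10 genes above 15 CPM. REG cell 1, the cell with the lowest total count, had *Junb* (164 CPM) alone above 15 CPM.

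**Figure D5:**
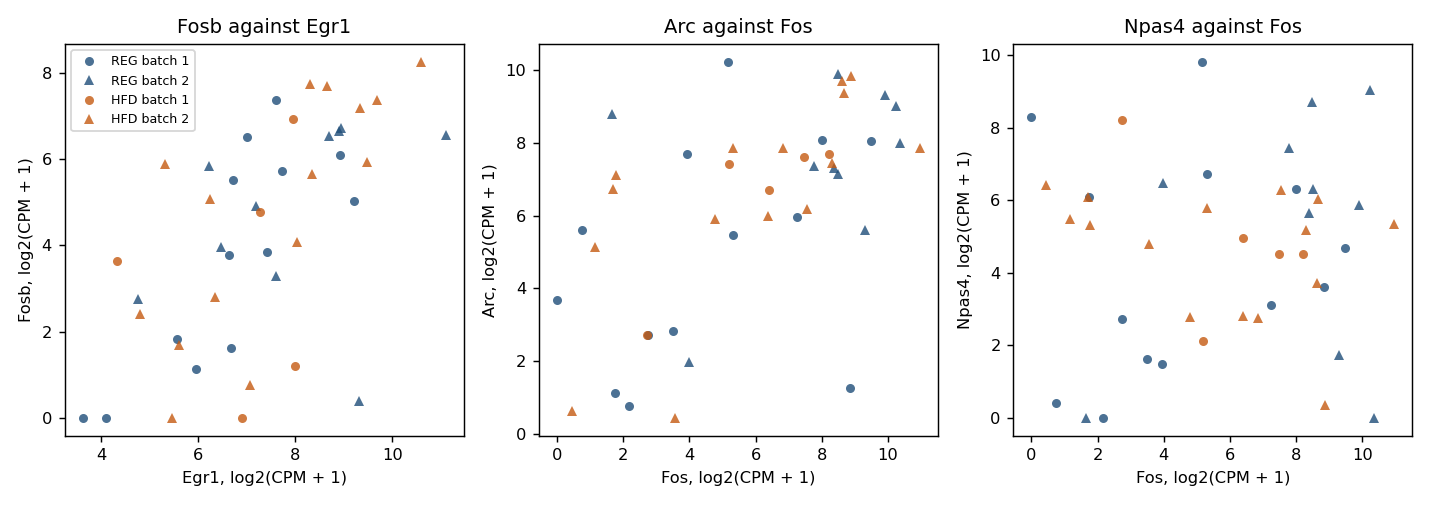
The 3 panels plot pairs of genes on log2(CPM + 1) axes, with 1 point per cell coloured by diet (blue REG, orange HFD) and shaped by batch (circles batch 1, triangles batch 2). Cells with more *Egr1* have more *Fosb* (rho 0.64) and cells with more *Fos* have more *Arc* (rho 0.59), while *Npas4* shows no trend with *Fos* (rho 0.00).

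Outside the set, likeness was measured as rho with the mean of the 10 genes' ranks over the 43 cells, among 9313 filtered genes counted in at least 22 cells. The 10 closest were *Nipa2* (0.66), a magnesium transporter gene, *Dusp1* (0.62), an early-response phosphatase that inactivates MAP kinases, *Siah2* (0.62), a ubiquitin ligase gene, *Taf11* (0.60), *Ubl3* (0.60), *Nfil3* (0.59), a transcription factor gene, *Plk2* (0.58), an activity-induced kinase, *Pnrc1* (0.57), *Dgcr2* (0.57) and *Arl5b* (0.57). *Dusp1*, *Nfil3* and *Plk2* belong to the other activity-regulated genes listed for comparison. *Nipa2* had 0.52 in batch 1 and 0.85 in batch 2, and *Dusp1* 0.59 and 0.57. The gene closest to a member among all filtered genes was never another member, although *Egr1* ranked at place 2 for *Fosb* and *Fosb* at place 2 for *Egr1*. That closest gene was *Nipa2* for *Fos* (0.69), *Mex3c* for *Fosb* (0.69), *Vamp3* for *Fosl2* (0.63), *Srcin1* for *Jun* (0.59), *mt-Co1* for *Junb* (0.55) and *Plk2* for *Egr1* (0.65). For the remaining members it was *2700097O09Rik* for *Egr3* (0.64), *Clcn7* for *Arc* (0.64), *Ppp1r1b* for *Nr4a1* (0.72) and *Maml1* for *Npas4* (0.60). *Ppp1r1b* encodes DARPP-32, a signalling protein of medium spiny neurons, and had 0.81 with *Nr4a1* in batch 1 and 0.71 in batch 2. Within batches these values ran from 0.26 to 0.83, with *Srcin1* at 0.64 in batch 1 and 0.26 in batch 2 and *Clcn7* at 0.81 and 0.43. Each was picked as the highest value among all genes compared, so its rho is a description of these cells.

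Other activity-regulated genes were summarised by list, as log2 ratios of HFD over REG cells. Of 12 other transcription factors, 8 passed the filter, with 2 higher, none lower and a median of 0.46, beside 9.04% higher, 14.3% lower and a median of −0.13 over all filtered genes. These shares of all genes hold for each list that follows. *Nr4a3*, a relative of *Nr4a1*, was higher, with a mean of 30.2 CPM for REG and of 101 CPM for HFD cells and a log2 ratio of 1.74, which was 1.72 in batch 1 and 1.31 in batch 2. Its medians were 12.8 and 78.4 CPM, and any 1 cell left out gave 1.45 to 2.03. *Nr4a3* thus stood higher in HFD cells on each of these measures while *Nr4a1* had a ratio of −0.00. *Klf4* had 1.02 over all cells but −1.32 in batch 1. Of 15 signalling regulators, 13 passed the filter, with 1 lower, *Sik1* (−1.25, but 0.07 in batch 2), none higher and a median of 0.01, so the share lower was below the 14.3% of all filtered genes. Of 12 effector genes, 10 passed, with *Inhba* higher (2.55, but 0.20 in batch 1 and −0.029 at the lowest with 1 cell left out) and *Tiparp* lower. *Tiparp*, which encodes an ADP-ribosyltransferase, had means of 41.1 and 13.3 CPM, a ratio of −1.63 with −1.13 and −2.03 in the batches, and medians of 0 CPM in REG and 4.16 CPM in HFD cells that lie in the other order.

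The signalling route to these promoters was represented by 20 genes of calcium, cAMP and MAP kinase signalling, which all passed the filter, with a median of −0.20. *Creb1*, which encodes the factor bound at cAMP response elements, was higher, with means of 24.6 and 63.8 CPM and a ratio of 1.37 (0.44 in batch 1 and 1.77 in batch 2, 0.50 to 1.56 with any 1 cell left out). *Crtc2*, a coactivator of CREB, was lower at −1.15, with 0.24 in batch 1. The other 18 genes of this list lay within the limit. Over cells, the mean rank of the 10 immediate early genes had a rho of 0.65 with that of the other transcription factors, 0.68 with the signalling regulators, 0.51 with the effector genes and 0.40 with the signalling route. With the summed CPM of each list in place of its mean rank these were 0.67, 0.65, 0.16 and 0.41, so the value for the effector genes depended on the measure. With 8 filtered heat shock genes, which respond to cell stress, it was 0.29, and of these *Hspa1b* alone was past the limit (1.45, but −2.76 in batch 1).

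Marker lists were checked in the same cells. The 3 GABAergic markers were counted in 94.6% of their gene and cell pairs, with summed medians of 776 CPM in REG and 713 CPM in HFD cells, and the 3 glutamatergic markers in 44.96%, with summed medians of 4.51 and 4.27 CPM (up to 38.98 and 66.9). The 7 listed medium spiny neuron markers were counted in 99.7% of pairs, with summed levels of 1585 to 5704 CPM in REG cells and 356 to 9167 CPM in HFD cells. D1 markers had 88.8% and D2 markers 40.5% of pairs counted, and the 3 cholinergic markers 13.2%. Of the 7 microglia markers, 5 passed the filter, and 2, *P2ry12* (2.27) and *Csf1r* (2.07), were past the limit on the higher side, where 9.04% of filtered genes were. Their summed level ran from 0 through a median of 61.9 to 1576 CPM in REG cells and from 3.81 through 69.5 to 1348 CPM in HFD cells. The 6 astrocyte markers had summed medians of 40.7 and 35.0 CPM (up to 449 and 639), and the 6 oligodendrocyte markers 97.7 and 149 CPM (up to 1126 and 1781). The 5 endothelial markers had summed medians of 259 and 318 CPM, where *Pecam1* had a median of 262 CPM over all cells and *Cldn5* and *Cdh5* were counted in 1 cell each. Over cells, the mean rank of the immediate early genes had a rho of −0.11 with the summed microglia markers, 0.08 with the astrocyte markers, 0.16 with the oligodendrocyte markers and 0.15 with the endothelial markers. *Lars2* took between 2.33% and 79.8% of the counts of a cell, and its share had a rho of −0.15 with the mean rank of the 10 genes, where the number of detected genes had 0.38 and the total count 0.32.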

How the data were processed

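The series holds 43 libraries of NAcLat→VTA cells. Per the labels, kallisto and edgeR were used by the authors with build GRCm38. Reads from SMART-Seq libraries were pseudo-aligned to the transcriptome, transcripts were summed per gene symbol, and cells with few reads or genes were removed. The authors deposited estimated counts per gene without normalization, and TPM per gene, scaled to 1000000 in each cell. Libraries were grouped by the diet and batch labels, and 0 columns were left unused.

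CPM was the estimated count over the total of the cell, times 1000000. A log2 ratio divided mean CPM without a pseudocount, and log2(CPM + 1) was used where named. Thinning drew 150000 rounded counts per cell with a fixed seed. Each cell is 1 library whose mouse is not named, so values carry no test. Intervals are exact binomial (Clopper-Pearson) and Poisson at 95% and cover counting error only. The binomial ones take each cell, or each pair of gene and cell, as independent. The ratio was tested on simulated data.

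The members and gene lists were chosen with earlier results of these data known. Named genes were all members, and from each other list of activity, signalling or stress genes up to 3 per direction past the limit whose sign held within each batch and on leaving out any 1 cell. To these came the 10 genes closest to the members' mean rank and the closest gene to each member. *Klf4*, *Sik1*, *Inhba*, *Crtc2*, *Hspa1b*, *P2ry12*, *Csf1r* and the cells described were chosen after their values were seen. Alternatives covered TPM, TMM factors (edgeR 4.0.16), DESeq2 1.42.0 size factors, other summaries, fitted coefficients read as values, each batch, thinning, detection limits and leaving out each cell. Exon positions came from GENCODE M21 of the same build. Tables were made with pandas 2.3.3 and scipy 1.17.1 in Python 3.11.15 and with R 4.3.3.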

Additional observations from a re-analysis of the deposited data

How the results depend on the processing

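The median log2 ratio of the 10 genes between diets ranged from −0.35 (batch 2 alone) to 0.50 (DESeq2 size factors) over 13 alternatives, and from −0.17 to 0.25 with any 1 cell left out, so its sign was not fixed. TMM factors moved the median over all filtered genes to 0.01 and DESeq2 size factors to 0.18, beside −0.13 in the reported scaling. Under these size factors *Jun* (1.33), *Nr4a1* (1.33) and *Junb* (1.16) passed the limit and *Npas4* (−0.79) did not. With medians in place of means, *Fosl2* (1.34) and *Nr4a1* (−1.62) passed and *Npas4* (−0.57) did not. The filtered genes also spread more widely upward in these 2 settings. Their 95th percentile was 2.34 with DESeq2 size factors and 3.87 with medians, beside 1.35 in the reported scaling. The share of filtered genes past the limit is not given for these settings, so the genes named here cannot be set against it. *Npas4* changed sign on the mean of log2(CPM + 1), to 0.060. The share of gene and cell pairs detected was 66.0% above 15 CPM, 70.9% at a count of at least 10 and 77.4% after thinning. The median rho was 0.17 among HFD cells alone, and 0.24 to 0.30 with any 1 cell left out. The median ratio of batch 2 over batch 1 was 1.52 in REG cells and 0.39 in HFD cells on the mean of log2(CPM + 1), and with any 1 cell left out it lay between 0.73 and 1.22 and between 0.86 and 1.20. The cause of these shifts was not tested. Cells could not be grouped by mouse because the labels do not name the mouse of a cell. Depth limits detection, since thinning took *Fos* from 42 to 30 cells and *Fosl2* from 35 to 24, and differences between mice cannot be separated from differences between cells.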
